A study of Bos taurus with 2 samples.

Results

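The genes described here are 10 core members of the TSC and mTOR nutrient sensing pathway: TSC1, TSC2, RHEB, MTOR, RPTOR, MLST8, RPS6KB1, EIF4EBP1, PRKAA1 and STK11. They were chosen by name and pathway role, with earlier results of these data known; the rule itself uses no measured value. Matching those names to the symbols of the bovine array found 22 of its 43653 probes, which stand for 8 of the 10 genes. The other 2 genes were found after their values had been seen: STK11 by 1 probe that the array names only by a gene ID, and TSC2 by 5 probes that the array identifies only by the description tuberous sclerosis 2. With these the set held 28 probes of 10 genes.

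The study compared whole blood of Holstein cattle by residual feed intake, which is the gap between actual feed intake and that predicted for the animal's size and output. One array held blood labelled low feed efficiency, which corresponds to a high residual feed intake, and 1 array held blood labelled high feed efficiency. Total RNA was copied into Cy3-labelled cRNA and read in a single colour on an Agilent array of bovine oligonucleotides. The labels give no age, sex, diet or treatment for either blood specimen and no number of animals behind it, so no difference below has a replicate check and no p-value is given.

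The mechanistic target of rapamycin, mTOR, is a kinase that drives protein synthesis and cell growth when nutrients and growth factors are plentiful. The TSC complex holds it back by switching off the small GTPase RHEB, and insulin signalling releases that brake while AMPK, the energy sensor that the kinase LKB1 activates, reinforces it. In blood the pathway is known for setting how far lymphocytes and myeloid cells grow and divide after stimulation. Much of this control acts through phosphorylation and the place of the proteins in the cell, neither of which an RNA array measures.

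Values are the background-subtracted intensity of a spot, given for each array as deposited. Differences are on the log2 scale, low minus high feed efficiency, after each array was divided by its own 75th percentile, which was an intensity of 98 on the low and 81 on the high feed efficiency array. Equal intensities therefore give a difference below 0: the scaling takes 0.27 off the unscaled log2 difference. A probe counted as above background where it exceeded 10.9, the level that the 153 negative control spots set on each array as their median plus 3 robust SDs. This held for 24325 probes (56.4%) on the low and 22714 probes (52.7%) on the high feed efficiency array. Among these, 2330 probes were above background on the low feed efficiency array alone and 719 on the high feed efficiency array alone. Both arrays lay on 1 slide and were read in 1 scan, per the file headers. Each gene was represented by the brightest of its probes that passed this limit on both arrays, which gave 10336 genes with a value, and a difference of at least 2-fold was counted as called.

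Of the 28 probes, 19 were above background on both arrays, 4 on the low feed efficiency array alone, 0 on the high feed efficiency array alone and 5 on neither. The whole array was uneven in the same direction. Of its 43096 probes kept, 2330 were above background on the low feed efficiency array alone and 719 on the high one alone. Of the 22 probes found by symbol, 14 were above background on both arrays. Of the 10 genes, 9 had a value and RPTOR had none. One of them, TSC1, was at least 2-fold higher in low feed efficiency, and 0 were at least 2-fold lower. The background was 0.368% of all genes called higher (38 of 10336) and 0.571% called lower (59 of 10336). The other 8 genes lay between -0.41 and 0.11. The median was -0.15 over the 9 genes and -0.14 over the 7 genes found by symbol, beside -0.04 over all genes. Differences within 0.5 of 0 were the rule across the array, at 90.6% of all genes, and 8 of the 9 genes were within that range. In bulk blood, a change in the share of a cell type and a change in RNA per cell cannot be told apart.

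**Figure D1:**
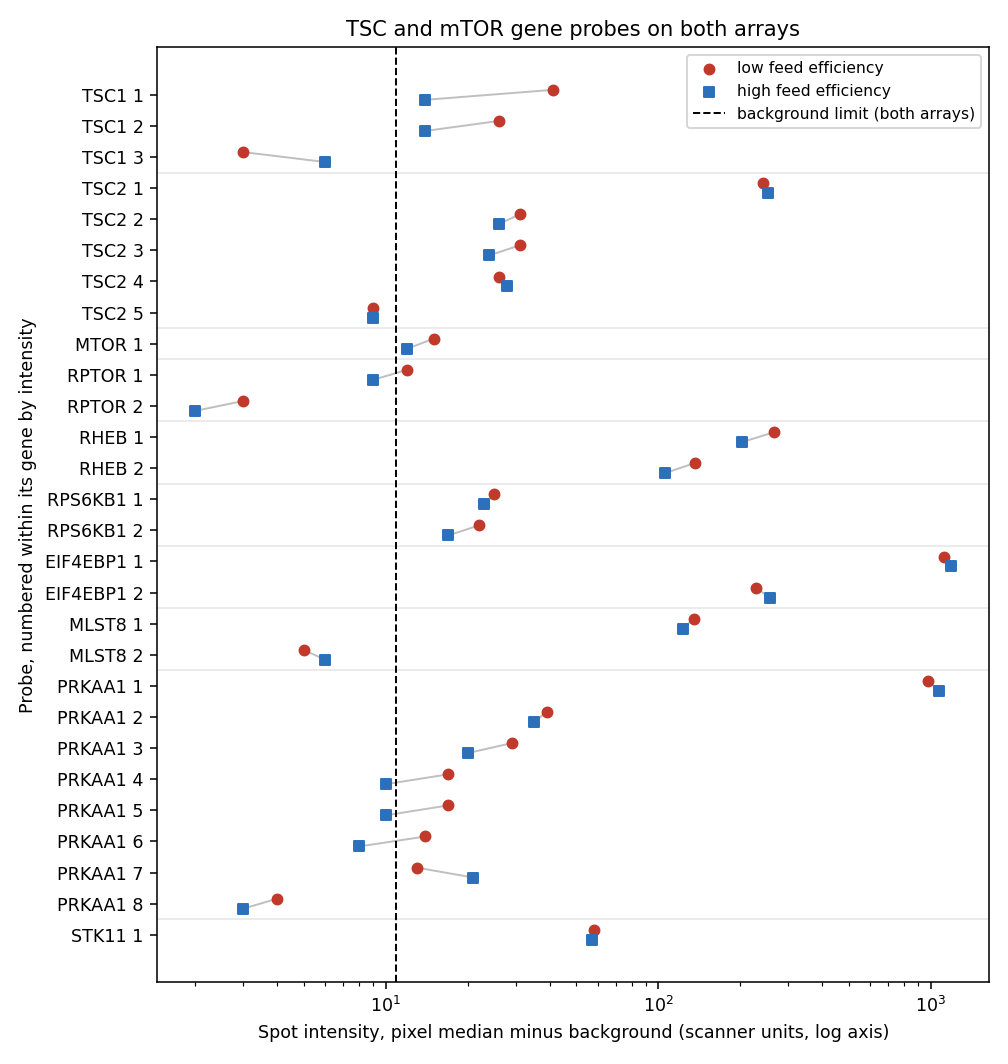
Background-subtracted intensity of each probe of the 10 genes (log axis) on the low and the high feed efficiency array, before scaling, with the background limit of 10.9 marked. The probes span intensities of 2 to 1191, and the 2 measured TSC1 probes stand at 41 and 26 on the low feed efficiency array, against 14 and 14 on the high feed efficiency array.

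TSC1 encodes hamartin, which stabilises tuberin, the partner encoded by TSC2, and is needed for the complex to act on RHEB. Its brightest probe, A_73_P282631, read 41 in low feed efficiency, against 14 in high feed efficiency. After scaling this was a difference of 1.28, or 2.42-fold. A second TSC1 probe read 26 in low feed efficiency, against 14 in high feed efficiency (log2 difference 0.62, or 1.54-fold). Both probes were thus higher in low feed efficiency, and only the first passed 2-fold. The third probe read 3 in low feed efficiency and 6 in high feed efficiency, below background on both arrays, and gives no direction. The mean difference of the 2 measured probes was 0.95. Their range of 0.66 was at percentile 92.8 of the 3000 genes with 2 measured probes, whose median range was 0.17, so the TSC1 probes disagreed more than those of most such genes. Those genes were not matched to TSC1 for signal.

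The TSC1 difference ranked 14th from the highest of the 10336 genes, a percentile of 99.9, while its signal was low, at percentile 13.8 of all genes. Among the 1493 genes whose mean signal lay within 0.5 log2 of that of TSC1, 25 (1.67%) were higher by 2-fold or more, 19 (1.27%) were lower by as much, and 95% of them lay between -0.83 and 0.87. The spots of the brightest probe had a pixel SD of 17 around the 41 of low feed efficiency and of 15 around the 14 of high feed efficiency, over 80 pixels each. The scanner software flagged the spot as good on the low feed efficiency array and left it unflagged on the high one. Negative control spots reached 9 on the low and 32 on the high feed efficiency array, and 2 of the 153 controls on the high array read 14 or more. The 200 probes in the surrounding 10 rows and columns had a median difference of -0.05. A median over so many probes cannot show a fault of a single spot, which was not tested.

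The 2-fold call of TSC1 ended under some treatments of the background: the difference was 0.24 after normexp correction with an offset of 50 and 0.54 with no background subtracted. With a limit of 6 robust SDs, with spots flagged good alone, or with probes above the median signal alone, TSC1 had no value.

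TSC2 encodes tuberin, the subunit that makes RHEB hydrolyse its GTP. Its brightest probe read 243 in low feed efficiency and 254 in high feed efficiency (log2 difference -0.34). A second probe read 31 in low feed efficiency and 26 in high feed efficiency (log2 difference -0.02), and the third read 31 in low feed efficiency and 24 in high feed efficiency (log2 difference 0.09). The fourth read 26 in low feed efficiency and 28 in high feed efficiency (log2 difference -0.38). The fifth was at 9 on both arrays and below background. The 4 measured probes thus disagreed in sign and none was 2-fold apart. Their range of 0.48 was near the median range of 0.38 among the 473 genes with 4 measured probes. The 2 subunits of the complex thus had values of opposite sign, 1.28 for TSC1 and -0.34 for TSC2, and with 1 array for each group the gap between them was not tested.

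RHEB is the GTPase that the TSC complex restrains and that activates mTOR complex 1 at the lysosome. Its brighter probe read 267 in low feed efficiency and 204 in high feed efficiency (log2 difference 0.11). Its other probe read 136 in low feed efficiency and 106 in high feed efficiency (log2 difference 0.08). The probes differed by 0.03, the closest of any of these genes with more than 1 measured probe, and both were far from 2-fold.

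**Figure D2:**
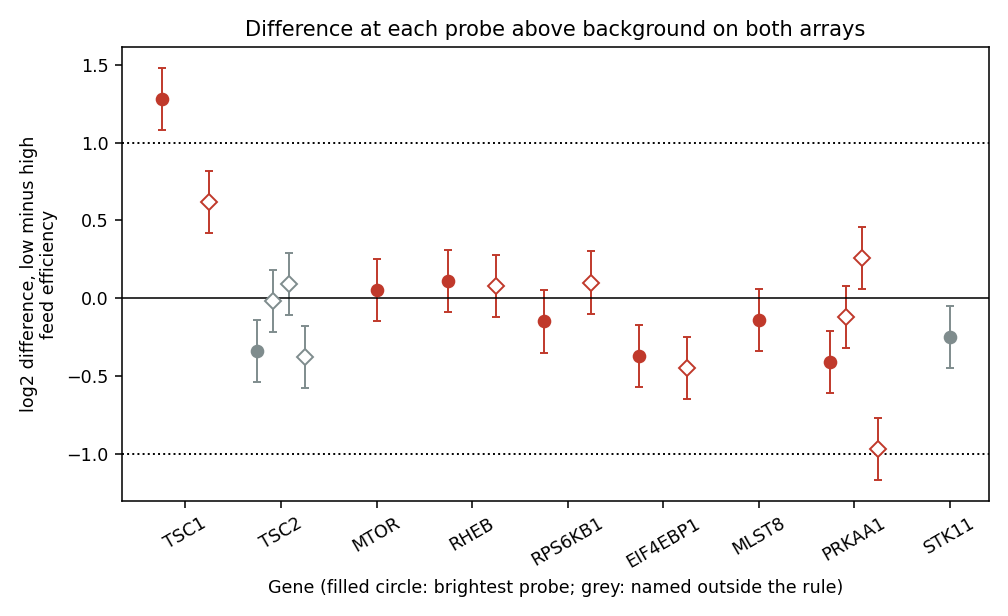
Log2 difference, low minus high feed efficiency, of each of the 19 probes above background on both arrays, grouped by gene. The error bars show 0.20, the SD over replicate spots of the 36 other probes that have them, and not a spread between animals. TSC1 holds the 1 probe beyond 2-fold (dotted lines at 1 and -1), and the lowest PRKAA1 probe lies just short of it at -0.97.

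MTOR, the kinase itself, had 1 probe, which read 15 in low feed efficiency and 12 in high feed efficiency. The difference of 0.05 rested on a signal just above background, at percentile 1.73 of all genes. RPTOR encodes raptor, the scaffold that brings substrates to mTOR complex 1. Its brighter probe read 12 in low feed efficiency, above background, and 9 in high feed efficiency, not above it. After scaling, the background limit leaves no fold for that probe. Its other probe read 3 in low feed efficiency and 2 in high feed efficiency. RPTOR therefore had no difference that could be given at this signal.

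MLST8 encodes a small subunit that both mTOR complexes share. It read 135 in low feed efficiency and 123 in high feed efficiency (log2 difference -0.14), and its other probe was below background at 5 in low feed efficiency and 6 in high feed efficiency. The 3 genes of the kinase complex thus gave 2 small differences of opposite sign and 1 probe seen in low feed efficiency alone. That of MTOR also changed sign with the background treatment, to -0.23 after normexp correction.

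RPS6KB1 encodes the S6 kinase, which mTOR complex 1 phosphorylates to raise translation and ribosome production. One probe read 25 in low feed efficiency and 23 in high feed efficiency (log2 difference -0.15). The other read 22 in low feed efficiency and 17 in high feed efficiency (log2 difference 0.10). The sign of RPS6KB1 thus depended on the probe.

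EIF4EBP1 encodes the repressor that holds the cap-binding factor eIF4E until mTOR complex 1 phosphorylates it. Its brighter probe read 1118 in low feed efficiency and 1191 in high feed efficiency (log2 difference -0.37). Its other probe read 228 in low feed efficiency and 257 in high feed efficiency (log2 difference -0.45). Both probes were lower in low feed efficiency, at folds of 0.776 and 0.733 that fell short of 2-fold, and they differed by 0.08. Among these genes with more than 1 measured probe, EIF4EBP1 was the one whose measured probes all lay below 0.

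PRKAA1 encodes a catalytic subunit of AMPK, which phosphorylates tuberin and raptor when energy is short. All 8 of its probes carry the same transcript accession. Its brightest probe read 979 in low feed efficiency and 1072 in high feed efficiency (log2 difference -0.41, a fold of 0.755). The next probe read 39 in low feed efficiency and 35 in high feed efficiency (log2 difference -0.12). The third read 29 in low feed efficiency and 20 in high feed efficiency (log2 difference 0.26). These 3 measured probes of 1 transcript thus lay on both sides of 0.

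The lowest PRKAA1 probe read 13 in low feed efficiency and 21 in high feed efficiency (log2 difference -0.97, a fold of 0.512), just inside the 2-fold limit. Its spot was unflagged on both arrays, and on the low feed efficiency array it covered 156 pixels with an SD of 23, larger than its own intensity. A further 3 probes were above background in low feed efficiency alone. Of these, 2 read 17 in low feed efficiency and 10 in high feed efficiency, at least 1.28-fold higher, and the third read 14 in low feed efficiency and 8 in high feed efficiency, at least 1.05-fold higher. These bounds set the low feed efficiency value over the lowest signal above background on the high feed efficiency array, after scaling. A probe above background in low feed efficiency alone can only be given a bound in that direction, so these 3 add no evidence of direction. The dim PRKAA1 probes measured on both arrays lay on both sides of 0, between -0.97 and 0.26. The eighth probe read 4 in low feed efficiency and 3 in high feed efficiency, on neither array above background. The range of 1.23 over the 4 measured probes was at percentile 97.9 of the 473 genes with 4 measured probes, so the probes of PRKAA1 disagreed more than those of most such genes. Those genes were not matched for signal, and the lower end of the range is the dim probe at -0.97.

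STK11 encodes LKB1, the kinase that activates AMPK. Its 1 probe read 58 in low feed efficiency and 57 in high feed efficiency (log2 difference -0.25). Its readings were nearly equal, so this value is close to the 0.27 that the scaling takes off. The 2 energy-sensing genes thus both had their gene value below 0, at -0.41 for PRKAA1 and -0.25 for STK11, and neither was 2-fold apart. A value below 0 was common, as 44.4% of all genes lay above 0.

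**Figure D3:**
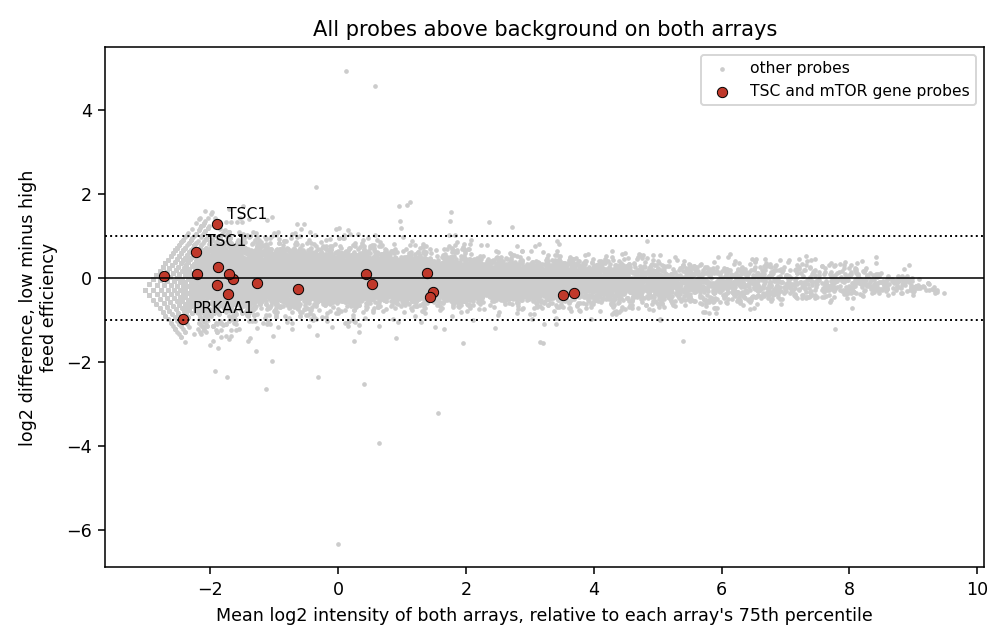
Log2 difference, low minus high feed efficiency, against the mean log2 signal of all probes above background on both arrays (grey) and of the TSC and mTOR probes (red). The grey cloud widens toward low signal, where the TSC1 probes lie. The bright EIF4EBP1 and PRKAA1 probes lie below 0 inside the cloud.

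Probe by probe, 8 of the 19 differences were above 0 and 11 below, beside 46.7% of all measured probes above 0. One probe was called higher, beside 0.464% of all 21995 measured probes, and 0 were called lower, beside 0.577%. The spread of the array itself depended on signal: 95% of the probes below the median signal lay between -0.74 and 0.73, against -0.55 to 0.48 for those above it. Of the probes below the median signal, 0.746% were at least 2-fold higher. Replicate spots of 1 probe gave an SD of the log2 difference of 0.23 for 24 dim and 0.10 for 12 bright probes, and none of the TSC and mTOR probes had replicate spots. Among the genes of dim signal, the MTOR, MLST8 and RPS6KB1 differences were smaller in size than the SD of dim probes, and those of STK11 (-0.25) and TSC1 (1.28) were larger. Measured from the median of all genes, STK11 was at -0.21, smaller in size than that SD. Among the bright genes, RHEB at 0.11 was about the size of the SD of bright probes, and TSC2, EIF4EBP1 and PRKAA1 were beyond it. These last genes lay at percentiles 13.7, 11.7 and 9.2 of all genes. Their values were inside the -0.55 to 0.48 that held 95% of probes above the median signal. An SD over replicate spots covers the array alone and says nothing of the spread between animals.

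The rest of the pathway was read from 5 lists of 91 further genes, of which 85 were on the array and 74 had a value. Of these, 0 were higher and 0 lower by 2-fold or more, beside 0.368% and 0.571% of all genes. Their median was -0.03, and 32 of 74 (43.2%) lay above 0, close to the 44.4% of all genes. The wider pathway as a whole thus did not stand away from the other genes.

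Genes that carry growth factor signals to the TSC complex were measured for 15 of 20 and had the highest median, 0.13, with 9 above 0. The largest difference was that of PIK3R1, the regulatory subunit of phosphoinositide 3-kinase, which read 25 in low feed efficiency and 11 in high feed efficiency (log2 difference 0.91). In the list of amino acid sensing at the lysosome, 22 of 26 genes were measured with a median of -0.09. RRAGD, a Rag GTPase that recruits mTOR complex 1 to the lysosome, read 80 in low feed efficiency and 42 in high feed efficiency (log2 difference 0.65). Both genes were higher in low feed efficiency and short of 2-fold. The high feed efficiency value of PIK3R1 lay at the background limit of 10.9, and its difference was 0.07 after normexp correction and 0.26 with no background subtracted; with the limit of 6 robust SDs or spots flagged good alone it had no value. RRAGD stood at 0.36 after normexp correction.

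Other subunits and assembly factors of the mTOR complexes were measured for 8 of 10 genes, with a median of -0.05. PRR5, a subunit of mTOR complex 2, read 345 in low feed efficiency and 406 in high feed efficiency (log2 difference -0.51), while its other probe gave -0.19. TELO2, a factor that helps fold kinases of this family, read 11 in low feed efficiency, just above background, and 3 in high feed efficiency, below it, which leaves no fold. The AMPK subunits and LKB1 partners were measured for 11 of 13 genes with a median of -0.04. CAMKK2, a calcium-dependent kinase that can activate AMPK, read 411 in low feed efficiency and 265 in high feed efficiency (log2 difference 0.36), and its 3 probes ranged between 0.02 and 0.36.

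Substrates and translation targets of mTOR complex 1 were measured for 18 of 22 genes with a median of -0.04. SREBF2, a transcription factor of sterol synthesis, was farthest from 0: it read 13244 in low feed efficiency and 15205 in high feed efficiency (log2 difference -0.47), beside -0.25 at its other probe. Among the 157 probes of the 5 lists above background on both arrays, 1 was higher by 2-fold or more, for MAP3K7 (30 in low and 12 in high feed efficiency, log2 difference 1.05), and 1 was lower by as much, for CASTOR1 (27 in low and 51 in high feed efficiency, log2 difference -1.19). Neither was the brightest probe of its gene, and both were picked out after their values were seen. Over all 21995 measured probes, 0.464% were higher and 0.577% lower by 2-fold or more.

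**Figure D4:**
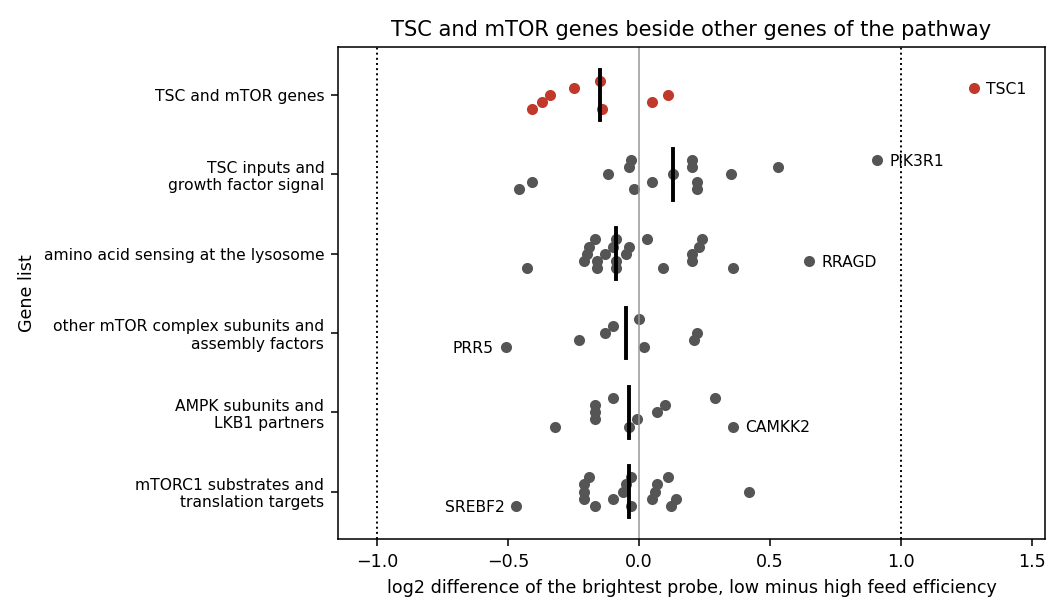
Log2 difference, low minus high feed efficiency, of the brightest measured probe of each gene, for the TSC and mTOR genes (red) and the 5 pathway lists (grey), with the median of each list as a bar and 2-fold as dotted lines. TSC1 at 1.28 is the 1 gene beyond 2-fold, and PIK3R1 at 0.91 is next.

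The labelled tissue carried blood markers: PTPRC, found on all leukocytes, read 1804 in low feed efficiency and 1572 in high feed efficiency (log2 difference -0.08). The neutrophil list had 8 of 9 markers measured, a median of 0.12 and a summed intensity before scaling of 79261 in low feed efficiency and 57847 in high feed efficiency. All sums here are before scaling, and the low feed efficiency array was the brighter, so a sum can point opposite to its median. Bright markers dominate them: in low feed efficiency S100A12 gave 48851 of the neutrophil sum and HBA 26648 of the erythroid sum. The medians of 3 other leukocyte lists, each measured in full, lay below 0. Each of these lists held markers on both sides of 0. Neutrophil markers ran from -0.23 to 0.41 and lymphocyte markers from -0.34 to 0.79. Monocyte markers ran from -0.86 to 0.32 and NK and cytotoxic markers from -0.65 to 0.11. Lymphocyte markers had a median of -0.14 over 8 genes and a summed intensity of 18354 in low feed efficiency and 16758 in high feed efficiency. Monocyte markers had a median of -0.31 over 5 genes, with sums of 29220 in low feed efficiency and 27596 in high feed efficiency, and NK and cytotoxic markers a median of -0.29 over 5 genes, with sums of 14936 in low feed efficiency and 15677 in high feed efficiency. Platelet markers had 3 of 4 measured and a median of -0.05. Erythroid markers had 4 of 5 measured and a median of -0.11, with a summed intensity of 33403 in low feed efficiency and 24923 in high feed efficiency. They pointed both ways: the globins HBA (0.13) and HBB (0.26) lay above 0, while AHSP, a chaperone of alpha globin, was at -0.36 and ALAS2, the first enzyme of haem synthesis in red cells, at -1.42. Of 6 liver and muscle markers, 3 were above background on both arrays, with differences between -0.35 and -0.18. TTR, a liver marker, was above background in low feed efficiency alone, at 17 against 6 in high feed efficiency, or at least 1.28-fold higher. The part of these cell types in the TSC1, EIF4EBP1 or PRKAA1 differences was not tested.

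Scaling on the 7 spike-in controls moved all genes up by 0.36, to a median of 0.32, and the median of the TSC and mTOR genes found by symbol to 0.22. Under it TSC1 stood at 1.63 and RHEB at 0.47, the values of MLST8 (0.22), RPS6KB1 (0.20), STK11 (0.11) and TSC2 (0.02) turned positive, and EIF4EBP1 (-0.01) and PRKAA1 (-0.05) came close to 0. The directions given for these genes are therefore relative to the other genes on the array.

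**Figure D5:**
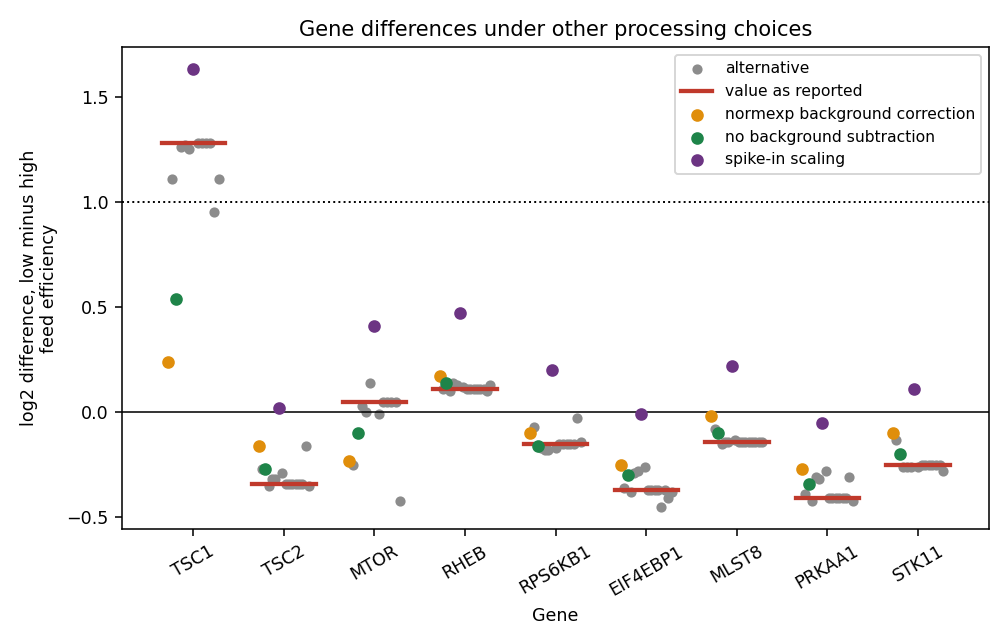
Log2 difference, low minus high feed efficiency, of each TSC and mTOR gene with a value under the reported setting (red line) and the alternatives (points). The larger coloured points are normexp correction, no background subtraction and spike-in scaling, and the small grey points are the other alternatives. TSC1 stays above 0 in all 13 alternatives that gave a value, between 0.24 and 1.63, while MTOR lies on both sides of 0, between -0.42 and 0.41. Several alternatives read the same spots again and are not separate checks.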

How the data were processed

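The deposited spot files give the intensity read at 532 nm, as exported by GenePix Pro 6.1.0.4 from a 4000B scanner on array design 023647, per the file headers; Agilent Feature Extraction, without a version, is the tool in the submitters' processing notes. Spot signal was the pixel median minus the software's background, which is 25 for every spot in the deposited files. The percent of saturated pixels (0 for every TSC and mTOR probe) and the flag score (100 good, 0 unflagged, -50 not found) are also deposited. The authors' deposited table of log2 values (median 4.34 on each array) does not state how it was normalized. Its order matched the spot files poorly as deposited (Spearman's rho 0.0766 for low and 0.0716 for high feed efficiency) and closely after a move of 1 row (1.00 for both), so it served as an alternative only, after that move.

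Bright spots flagged as not found (408 on the low and 283 on the high feed efficiency array) and control spots were left out on both arrays. Probes were named by accession (26743) or by gene ID (528) through the RefSeq gene table of ARS-UCD2.0, by current symbol (5971), synonym (150) or the array's own name (1125), and 9136 stayed unnamed. Values were computed in Python 3.11.15 with numpy 2.4.6 and pandas 2.3.3, and the normexp, quantile and loess alternatives with limma 3.58.1 in R 4.3.3. The steps were tested on simulated data, with folds put only into probes brighter than those of TSC1 and MTOR. That test does not cover signals as low as theirs. With 1 array a group there was no test. The members and lists were chosen with earlier results of these data known. The text names every member and the gene farthest from 0 in each of the 5 pathway lists. It also names any gene of those lists above background on 1 array only. Marker lists are given by counts and medians, with ranges or sums for some. The marker genes named, other than PTPRC, were picked after their values were seen. The number of arrays limits the precision.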

Additional observations from a re-analysis of the deposited data

How the results depend on the processing

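No paired analysis was possible because each group holds 1 array. The call of 1 gene at least 2-fold higher became 0 after normexp correction, with no background subtracted, with the 6 robust SD limit, with signal above the median, with spots flagged good, with the mean over probes and at 4-fold. The count of 1 probe higher became 0 under the same settings other than the mean over probes, which was not applied to probes, and 2 at 1.5-fold. The count of 0 probes lower became 1 after quantile normalization, in the authors' deposited table, with no background filter and at 1.5-fold. The count of 0 pathway genes apart became 1 with the pixel mean (PIK3R1 at 1.04), 2 with spike-in scaling (PIK3R1 at 1.27 and RRAGD at 1.01), 2 at 1.5-fold and 3 with no filter (AKT2, TELO2 and ULK1). Calls over all genes moved as well. The reported setting called 38 higher and 59 lower of 10336, the pixel mean 58 and 82, and spike-in scaling 213 and 20. With no filter, 829 were higher and 903 lower of 15571. The genes called higher fell to 27 after normexp correction and to 5 with no background subtracted. The 14 probes above background became 9 with the stricter limit, 6 with signal above the median, 8 with spots flagged good and 22 with no filter. The median of -0.14 became 0.22 with spike-in scaling. Stricter filters keep fewer probes by construction. A limit of 4-fold cannot keep the 2.42-fold difference of TSC1, and a limit of 1.5-fold can only add calls. Leaving the background of 25 in both readings, or adding the normexp offset of 50, brings the unscaled ratio of the readings nearer to 1. Spike-in scaling adds the same 0.36 to every gene. The cause of the other changes was not tested. PIK3R1 ranged between 0.07 (normexp) and 1.27 and was 0.65 with the local background. Over the alternatives with a value, RHEB stayed above 0 (0.10 to 0.47) and EIF4EBP1 (-0.45 to -0.01) and PRKAA1 (-0.42 to -0.05) below it, in 16 of 16 each. Several of these settings read the same spots again and returned the same value, so they are not separate checks of the direction. Subtracting the local background and adding the TSC2 and STK11 probes were chosen after seeing the data; with the local background TSC1 was at 1.11 and MTOR at -0.42. Signal over background limits TSC1, PIK3R1, MTOR, RPTOR and the dim PRKAA1 probes.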
